A study of Mus musculus with 8 samples.

Results

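The urea cycle and its partner reactions of glutamine and ammonia are described here through 9 genes: Nags, Cps1, Otc, Ass1, Asl and Arg1 of the cycle, and Glul, Gls2 and Glud1 of glutamine and glutamate. Each gene was taken by name from the platform annotation and represented by its brightest probe set carrying 1 gene symbol. Of the 9 genes, 8 could be read in this way, among 22180 genes in all, and Gls2, the liver glutaminase, was not analysed here. Samples were 8 separate cultures of AML12 cells, 4 wild-type and 4 in which the VWA8 gene had been deleted with CRISPR/Cas9 (genotype VWA8-null, called knockout here), each hybridised to 1 Affymetrix mouse array. The study asked which transcripts change with loss of VWA8, a mitochondrial protein with an ATPase domain. AML12 is a hepatocyte line from a mouse transgenic for human TGF-alpha, so both groups share that origin. Both groups were also differentiated and grown in medium with serum, antibiotics, insulin, transferrin, selenium and dexamethasone, a synthetic glucocorticoid. How many knockout clones were used is unstated in the labels, so clone and deletion cannot be told apart.

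Hepatocytes dispose of ammonia by 2 routes. In the cells around the portal vein, ammonia enters the urea cycle, whose first steps run in the mitochondrial matrix and whose later steps run in the cytosol, so that ornithine and citrulline must cross the inner membrane. In the cells around the central vein, ammonia that escaped is bound into glutamine. Of the measured enzymes, NAGS, CPS1, OTC and GLUD1 work in mitochondria, and ASS1, ASL, ARG1 and GLUL in the cytosol.

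Values are log2 array signals as deposited, and changes are log2 differences, knockout minus wild-type, from limma with its standard error (SE). P-values were adjusted over all 22180 genes, with a threshold of 0.05. Array medians lay between 4.27 and 4.33, and the median change of all genes was -0.003. Signals of different probe sets are not compared with each other, and a signal near the median probe set, 4.28, cannot be told from no expression. In RNA from whole cultures, a change in the share of cells that express a gene and a change of RNA per cell cannot be told apart. Vwa8 checked the labels: it read 8.95 ± 0.041 in wild-type and 5.18 ± 0.116 in knockout arrays (mean ± SD, n = 4 each). The label of hepatocytes was checked with 9 measured marker genes, among them Alb, Apoa1 and Hnf4a. All 9 passed as higher in the knockout (median 0.45 in limma), where 10.4% of all genes did. Of the 9, Cyp2e1 lay below the median probe set in both groups (3.67 and 4.04). The summed level of the 9 was 14.40 to 14.44 in wild-type and 14.79 to 14.86 in knockout arrays. This rise of hepatocyte transcripts went along with each rise below, and its part in them was not tested. Stellate cell and endothelial markers were mostly dim: 8 of 9 and 6 of 7 lay below the median probe set in both groups. None of the markers of either type passed in limma (1 stellate marker was lower and no endothelial marker moved at an unadjusted p under 0.05). Summed levels overlapped between genotypes for stellate (7.21 to 7.38 against 7.18 to 7.34) and endothelial markers (6.38 to 6.60 against 6.47 to 6.58). Of 8 macrophage markers 4 were dim and only Cd14 passed (fell by 0.45). The other 7 changes ran from -0.21 (Csf1r) to 0.23 (Adgre1). The summed level went from 9.09 to 9.19 down to 8.77 to 8.85. This sum mostly restates Cd14, at 8.81 in wild-type against 5.47 for Cd68, the next brightest. Of 5 measured markers of bile duct cells 4 were brighter than the median probe set. Cftr fell by 0.92 and Krt7 by 0.52, while Krt19 (-0.18), Epcam (-0.04) and Sox9 (0.11) did not pass. Sox9, the brightest at 10.07 in wild-type, had every knockout array above every wild-type array. The sum, to which Sox9 gave most, stayed at 10.59 to 10.67 against 10.56 to 10.68. The part of these other cell types in the results was not tested.

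Of the 8 measured enzymes 5 rose in the knockout, and none fell. The 5 were Cps1, Otc, Arg1, Asl and Glud1, and in each of them all 4 knockout arrays lay above all 4 wild-type arrays. Ass1, Nags and Glul did not pass. Over all genes, 10.4% were called higher and 10.4% lower, 20.9% in either direction, and the groups did not overlap in 26.1% of genes, with the knockout higher in 12.9%. The median change of the 8 enzymes was 0.32. At an unadjusted p under 0.05 in limma, 6 were higher and still 0 lower.

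**Figure D1:**
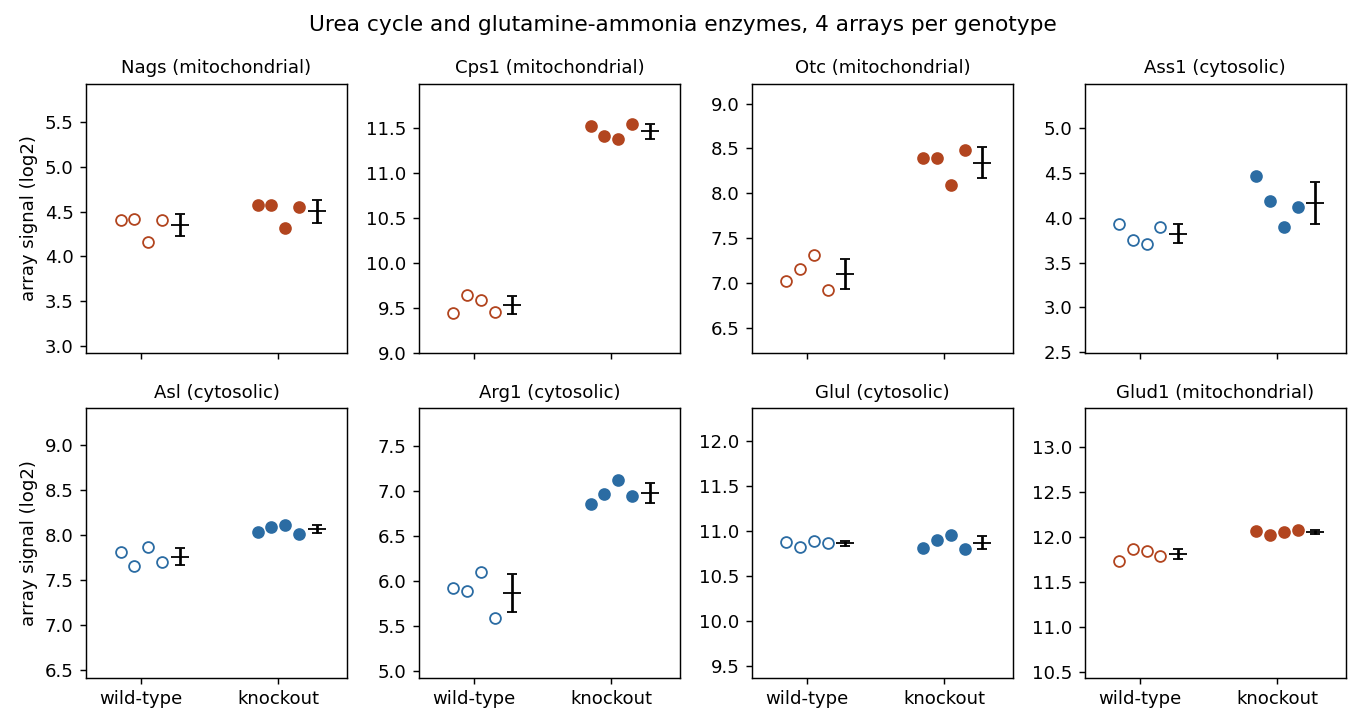
Log2 array signal of the 8 measured enzymes in each array (open circles wild-type, filled circles knockout, red mitochondrial, blue cytosolic), with the mean and SD of 4 arrays in black. Every panel spans the same log2 range around its own mean, so the steps can be compared by eye while the signals themselves cannot. Cps1, Otc and Arg1 separate widely, Asl and Glud1 by a small gap, and Nags, Ass1 and Glul overlap.

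The first enzyme of the pathway is NAGS, which makes N-acetylglutamate, the obligatory activator of CPS1. Nags read 4.41, 4.42, 4.16 and 4.40 in the wild-type arrays and 4.58, 4.57, 4.31 and 4.55 in the knockout arrays. Of the knockout arrays 3 were above every wild-type array, and replicate 3 was below all wild-type arrays but replicate 3. Its change was 0.15 ± 0.088 (95% interval -0.05 to 0.35, adjusted p = 0.287 in limma), from a signal close to the median probe set. A second, dimmer Nags probe set gave 0.03 ± 0.136.

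CPS1 joins ammonia and bicarbonate into carbamoyl phosphate and commits nitrogen to the cycle. Cps1 read 9.44, 9.64, 9.59 and 9.45 in wild-type and 11.52, 11.41, 11.38 and 11.55 in knockout arrays. The lowest knockout array stood 1.74 above the highest wild-type array, a gap many times the spread within either group. The change, 1.94 ± 0.072, is 3.83-fold (95% interval 3.42 to 4.28), and it ranked 34 among the 22180 genes by size of rise. Bright genes beside Cps1 on chromosome 1 were themselves shifted up, with a median change of 0.28, and subtracting this left Cps1 at 1.65.

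OTC transfers the carbamoyl group to ornithine, forming citrulline in the matrix. Its X-linked gene read 7.02, 7.16, 7.31 and 6.92 in wild-type arrays and 8.40, 8.39, 8.10 and 8.49 in knockout arrays. The groups were 0.78 apart at their closest. Otc rose by 1.24 ± 0.110, or 2.36-fold (1.98 to 2.81; adjusted p = 7.53e-05 in limma), and its neighbours along the X chromosome had a median change of -0.04.

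Promoter sequence from RefSeq (GRCm38.p6) was at hand for 5 of the 9 genes, Nags, Otc, Ass1, Glul and Glud1. Otc, which rose, and Glul, which did not pass, are shown because they lie at opposite ends among these 5. Bases directly before the annotated gene are printed 5′ to 3′ on the plus strand, chrX:10252155-10252229 for Otc and chr1:153899779-153899928 for Glul, with CCAAT boxes in capitals.
Otc: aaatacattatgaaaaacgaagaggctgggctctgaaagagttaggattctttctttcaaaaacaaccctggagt
Glul: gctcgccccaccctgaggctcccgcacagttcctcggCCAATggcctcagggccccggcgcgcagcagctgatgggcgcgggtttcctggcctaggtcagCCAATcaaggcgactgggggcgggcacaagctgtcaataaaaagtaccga
The 250 bases before each start in the RefSeq table were searched on both strands for 6 motifs. For Otc this start lies 75 bases inside the annotated gene. Its window therefore holds the printed bases and also the first bases of the gene. General promoter elements were the TATA box, spelled TATAAA, and the CCAAT box. Liver-related motifs were the core of C/EBP sites, spelled TTGCNNAA, and the half-site of HNF4, spelled CAAAGTC. The others were the half-site of the glucocorticoid receptor, spelled AGAACA, and the TCF/LEF motif of Wnt signalling, spelled CTTTGAT. Glul held CCAAT at -113 to -109 and at -50 to -46, where 33.8% of 32536 promoters hold at least 1 such match. Nags held CTTTGAT on the minus strand at -204 to -198, found in 3.21% of promoters. The windows of Otc, Ass1 and Glud1 held none of the letters searched. TTGCNNAA occurs in 9.57%, CAAAGTC in 3.87%, TATAAA in 12.3% and AGAACA in 5216 of the 32536 promoters. By base content the Otc window was the poorest in G and C of the 5, at 43.6%, and that of Glud1 the richest, at 82.0%, against a median of 52.4% over all promoters.

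In the cytosol, ASS1 couples citrulline to aspartate. Ass1 was dim, at 3.93, 3.75, 3.71 and 3.90 in wild-type and 4.46, 4.19, 3.90 and 4.11 in knockout arrays. Again 3 knockout arrays exceeded all wild-type arrays, and replicate 3 fell among them. The change was 0.34 ± 0.117 and missed the threshold (adjusted p = 0.0737 in limma). Leaving out knockout replicate 3 gave 0.43, past the threshold at adjusted p = 0.0240. Subtracting the change of neighbours on chromosome 2 left 0.20.

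ASL splits argininosuccinate into arginine and fumarate. Asl read 7.82, 7.66, 7.87 and 7.70 in wild-type arrays against 8.04, 8.09, 8.11 and 8.01 in knockout arrays. The groups did not overlap but came within 0.14 of each other. Asl rose by 0.30 ± 0.065, a 1.23-fold change (adjusted p = 0.00992 in limma).

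Arginase 1 closes the cycle, releasing urea and returning ornithine. Arg1 read 5.92, 5.88, 6.10 and 5.58 in wild-type and 6.86, 6.97, 7.13 and 6.95 in knockout arrays, with 0.77 between the groups. It rose by 1.11 ± 0.110, or 2.15-fold (1.81 to 2.56; adjusted p = 0.000142 in limma). Bright neighbours on chromosome 10 had a median change of -0.24, and relative to them Arg1 rose by 1.34.

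Glutamine synthetase, encoded by Glul, is the ammonia scavenger of pericentral hepatocytes. Its signal was 10.88, 10.83, 10.89 and 10.87 in wild-type arrays and 10.82, 10.91, 10.95 and 10.80 in knockout arrays. Knockout arrays fell on both sides of the wild-type range. The change was 0.00 ± 0.057 (adjusted p = 0.992 in limma), and its 95% interval, -0.13 to 0.13, leaves a change of up to 1.10-fold in either direction unresolved. The second Glul probe set was far dimmer and gave 0.23 ± 0.180.

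Glutamate dehydrogenase, encoded by Glud1, releases ammonia from glutamate in the matrix. Glud1 read 11.74, 11.87, 11.84 and 11.79 in wild-type and 12.07, 12.03, 12.06 and 12.09 in knockout arrays. Although the gap was only 0.16, the knockout arrays agreed closely (SD 0.024), and Glud1 rose by 0.25 ± 0.054, or 1.19-fold (adjusted p = 0.00999 in limma). Signals this bright can be compressed, since the highest value on any array was 13.55.

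Sorted by compartment, 3 of 4 measured mitochondrial enzymes and 2 of 4 cytosolic enzymes passed. The median change was 0.74 over the mitochondrial and 0.32 over the cytosolic steps, a description of 4 genes each that was not tested. Taking each array's mean difference from the wild-type means, the knockout arrays lay between 0.76 and 0.97 for mitochondrial enzymes and between 0.39 and 0.47 for cytosolic ones. Wild-type arrays lay between -0.06 and 0.07 and between -0.07 and 0.06. Compartments nonetheless overlapped gene by gene. The mitochondrial changes ran from 0.15 (Nags) to 1.94 (Cps1) and the cytosolic ones from 0.00 (Glul) to 1.11 (Arg1). Otc in the matrix and Arg1 in the cytosol had overlapping 95% intervals, as did Glud1 and Asl. Within the urea cycle alone, medians were 1.24 for the 3 mitochondrial and 0.34 for the 3 cytosolic enzymes. The cytosolic median of 0.34 is the value of Ass1, which did not pass. Ass1 (3.82 in wild-type, 4.17 in knockout) lay below the median probe set and Nags (4.35 and 4.50) close to it. The medians of both compartments thus include signals that cannot be told from no expression. Without Nags, the middle change of the other 3 mitochondrial enzymes was 1.24 (Otc). Without Ass1, that of the other 3 cytosolic enzymes was 0.30 (Asl).

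**Figure D2:**
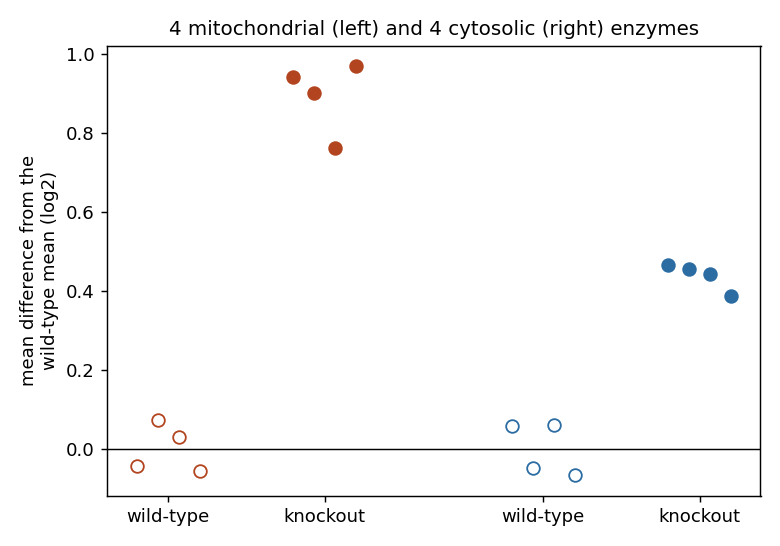
Mean over 4 mitochondrial enzymes (red, left) and over 4 cytosolic enzymes (blue, right) of the log2 difference from each gene's wild-type mean, 1 point per array, open for wild-type and filled for knockout. Wild-type points scatter around 0 by construction, and knockout points lie at 0.76 to 0.97 on the left and 0.39 to 0.47 on the right.

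To ask whether enzymes of related reactions changed unequally, the log2 difference of 2 genes within each array was compared between genotypes. This was done for 3 pairs. Cps1 minus Glul, urea against glutamine synthesis, shifted by 1.93 in favour of Cps1, with SDs between arrays of 0.118 in wild-type and 0.156 in knockout (n = 4 each) and no overlap between genotypes. The size and sign of such a difference within 1 genotype depend on the probe sets and were not read, only the shift. Cps1 minus Cad, which encodes the cytosolic protein that makes carbamoyl phosphate for pyrimidines, shifted by 2.36. Here Cad itself fell by 0.43 ± 0.071. Both shifts gave p = 0.0286 in a two-sided exact permutation test over the 70 arrangements of the arrays, the smallest p they allow, and 0.0286 after adjustment over the 3 pairs. With Cps1 up by 1.94 and Glul at 0.00, the first shift mostly restates the rise of Cps1. The second adds the fall of Cad to that rise. Both p-values followed from the separation of Cps1 and are no evidence beyond the changes of the single genes. The third pair, Arg1 minus Arg2, shifted by 1.09, but Arg2, the mitochondrial arginase, was too dim (3.62 ± 0.539 and 3.63 ± 0.262) to be told from no expression. That shift therefore restates the rise of Arg1, and whether the arginases changed unequally could not be tested.

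Carriers and helpers of the cycle were described next, as a list of 22 genes of which 21 were measured. Of these, 7 rose and 2 fell, with a list median of 0.05. Slc25a13 and Slc25a12, the mitochondrial carriers that export aspartate for ASS1, rose by 1.73 ± 0.056 and 0.53 ± 0.076. Slc25a15, the carrier that exchanges ornithine and citrulline across the inner membrane, read from 7.47 to 7.65 in wild-type and from 8.35 to 8.45 in knockout arrays, a rise of 0.85 ± 0.062. Sirt5, a mitochondrial deacylase that activates CPS1 in mice, rose by 0.57 ± 0.079 (adjusted p = 0.000886 in limma). The remaining rises, named after their values were seen, were Car5b (0.35), Sirt3 (0.36) and Aqp8 (0.59). Car5b is a mitochondrial carbonic anhydrase, Sirt3 a deacetylase of OTC in mice and Aqp8 a channel for water and ammonia. Aqp8 read 4.22 in wild-type, below the median probe set, and 4.81 in knockout arrays. The falls were Slc7a1, the widespread arginine importer, at -0.34 ± 0.078, and Aqp9, the glycerol and urea channel, at -0.21 ± 0.065. Slc7a1 stood at -0.24 (adjusted p = 0.0636 in limma) relative to its chromosomal neighbours. The call of Aqp9 was lost under 12 of 17 alternative settings (adjusted p from 0.0138 to 0.125), among them leaving out any array other than wild-type replicate 3. Slc7a2, the hepatic arginine importer, was dim at 3.45 and 3.60, and the urea transporters Slc14a1 and Slc14a2 stood at 0.03 and -0.02 near the median probe set.

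**Figure D3:**
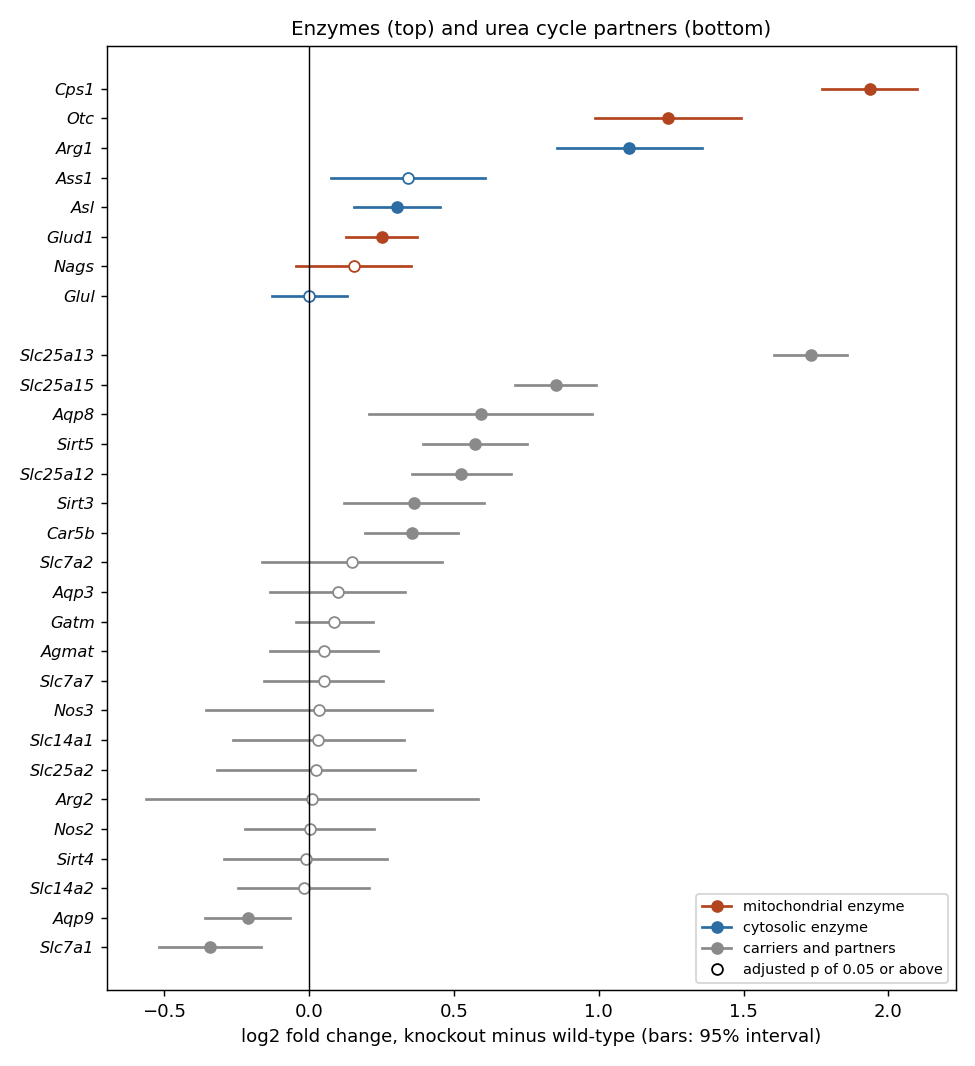
Log2 fold change, knockout minus wild-type, with the 95% interval of the limma fit for the 8 enzymes (top; red mitochondrial, blue cytosolic) and the 21 measured carriers and helpers (bottom, grey). Filled points passed an adjusted p of 0.05. Cps1, Slc25a13, Otc and Arg1 stand furthest to the right, above 1 on the log2 axis, while Glul and most of the helpers lie around 0.

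Handling of glutamine and glutamate changed in both directions. In this list of 24 measured genes 5 rose and 3 fell, with a median of 0.07. Of all genes, 10.4% were called in each direction. Slc38a3, the sodium-coupled glutamine transporter of hepatocytes, rose by 1.06 ± 0.061. Slc7a5 and Slc1a5, neutral amino acid transporters common in dividing cells, stood at -1.07 ± 0.078 and -0.39 ± 0.078. The call of Slc1a5 was lost when its probe sets were averaged (-0.07, adjusted p = 0.793 in limma) and relative to its chromosomal neighbours (log2 fold change of Slc1a5 -0.24, adjusted p = 0.0612). Abat, the GABA transaminase, rose by 1.19 ± 0.084 (0.57 when its probe sets were averaged) and Psat1, a glutamate-using enzyme of serine synthesis, by 0.59 ± 0.057. Among aminotransferases the mitochondrial Got2 (0.56) and Gpt2 (0.49), named after their values were seen, rose. Of their cytosolic counterparts, Got1 fell by 0.28 ± 0.054, and Gpt stood at 0.17 ± 0.097 and did not pass. The differences between the paired aminotransferases were not tested. The ammonium transporters Rhbg and Rhcg were below the median probe set.

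Enzymes that release ammonia from amino acids and amines rose in 7 of 15 measured cases and fell in 3 (median 0.24). Of all genes, 10.4% were called higher and 10.4% lower. The median is the value of Dao, which was dim (3.01 in wild-type, 3.26 in knockout) and did not pass. Maob, a monoamine oxidase, rose by 1.83 ± 0.057, and its paralog Maoa fell by 0.33 ± 0.051. Cth, which cleaves cystathionine, rose by 1.34 ± 0.057, the histidase Hal by 1.26 ± 0.060, and Gldc of the glycine cleavage system by 0.49 ± 0.059. The other 2 falls were small, Ftcd of histidine breakdown at -0.21 ± 0.053 and Ampd3, an AMP deaminase, at -0.22 ± 0.066. Relative to chromosomal neighbours Ftcd stood at -0.11 and Ampd3 at -0.15. Both calls were lost in some single omissions, Ftcd without wild-type replicate 2 or 4 or knockout replicate 3 or 4 and Ampd3 without any array other than knockout replicate 3.

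Genes that use ornithine, proline or polyamines were split, with 3 of 12 higher and 4 lower (median -0.05). The share of all genes called was 10.4% in each direction. Prodh2, a hydroxyproline dehydrogenase of liver, rose by 1.14 ± 0.067. Aldh18a1 and Aldh4a1, which make and oxidise the shared intermediate of proline and glutamate, rose by 0.28 ± 0.063 each. The call of Aldh4a1 was lost under 1 of 17 alternatives, the replicate block (adjusted p = 0.0515 in limma). Odc1, the decarboxylase that turns ornithine into putrescine, fell by 0.45 ± 0.084, the antizyme Oaz2 by 0.50 ± 0.060 and the polyamine acetylase Sat1 by 0.43 ± 0.062. The fourth fall, named after its value was seen, was the antizyme inhibitor Azin1 at -0.21. Oat, the ornithine aminotransferase, had a value of 0.17 ± 0.057 that did not pass (adjusted p = 0.0645 in limma; 4 of 17 alternatives put it past, with adjusted p from 0.00525 to 0.146). Among 11 measured enzymes that take nitrogen from glutamine for nucleotides and other products, or follow them in pyrimidine synthesis, 2 rose and 3 fell (median -0.14). This median is the value of Gfpt2, which was dim (2.41 in wild-type, 2.27 in knockout) and did not pass. Ctps and Ctps2, which aminate UTP, fell by 0.41 ± 0.067 and 0.33 ± 0.064 beside Cad, while Asns, asparagine synthetase, rose by 0.36 ± 0.066. Gmps, which makes GMP, rose by 0.29 ± 0.062, or 0.02 relative to its neighbours on chromosome 3 (adjusted p = 0.887 in limma).

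Since urea synthesis and glutamine synthesis mark opposite zones of the liver lobule, genes known from each zone were set beside the enzymes. Leaving out the 5 urea cycle enzymes on the periportal list, 8 of the other 13 genes rose and none fell, with a median of 0.97. Over all genes, 10.4% were called higher. Hal, one of the 8, is also among the ammonia-releasing enzymes above. The 5 that did not pass included the bright Cdh1 (0.01) and Ctsc (-0.18). For Ctsc every knockout array lay below every wild-type array. The others, Pck1 (0.07), Cyp2f2 (-0.15) and Pigr (0.11), were below the median probe set in both groups. Without Glul, 4 of 20 pericentral genes rose and none fell, with a median of -0.05. At an unadjusted p under 0.05, 1 gene of each full list fell. G6pc, which encodes the enzyme that releases free glucose, Hsd17b13, a lipid droplet protein, and Hal had the smallest adjusted p of these 13, with rises of 2.62 ± 0.092 for G6pc and 1.41 ± 0.057 for Hsd17b13. Apoa4, an apolipoprotein named after its value was seen, rose by 2.20 ± 0.252. On the pericentral side Cyp27a1 rose by 0.63 ± 0.070 (0.35 relative to its neighbours) and Cyp1a2 by 0.72 ± 0.139. Cyp2e1 rose by 0.37 ± 0.087 but was dim in both groups (3.67 in wild-type, 4.04 in knockout). Aldh1a1 rose by 0.20 ± 0.055, a call lost under 7 of 17 alternatives, among them leaving out wild-type replicate 1 or 4 or knockout replicate 1, 2 or 3. Axin2 and Lgr5, targets of Wnt signalling as Glul is in liver, read 4.35 and 3.36 in wild-type arrays and stood at -0.22 each without passing. Of the 21 pericentral genes 8, and of the 18 periportal genes 4, were dimmer than the median probe set in both groups. The lists thus differ in how much of them could be seen, and the difference between the lists was not tested.

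**Figure D4:**
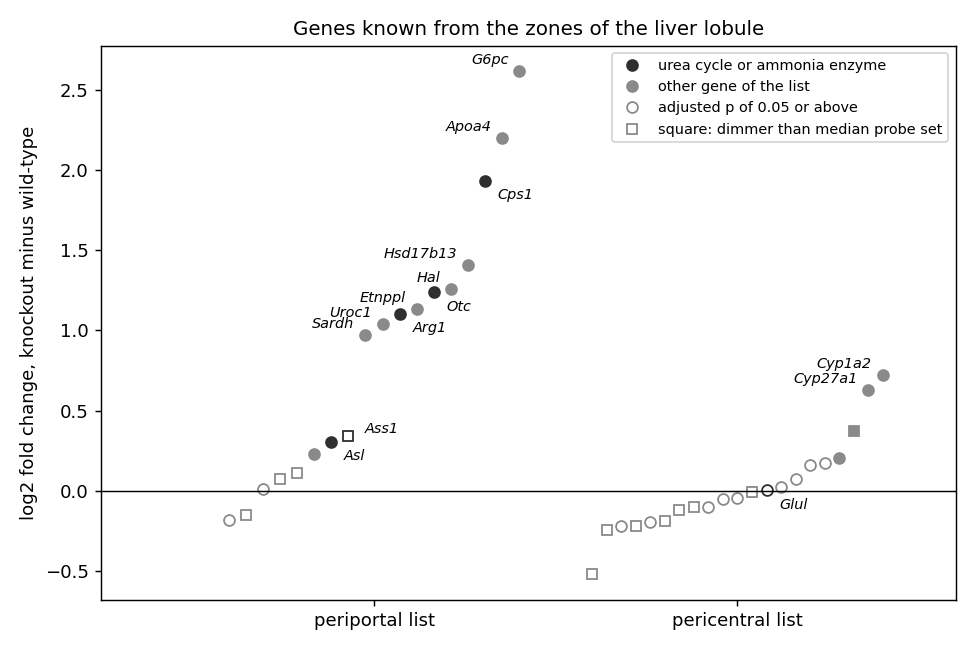
Log2 fold change, knockout minus wild-type, of 18 periportal (left) and 21 pericentral (right) genes, ordered within each list. Black points are urea cycle or ammonia enzymes, grey points other genes, filled points passed an adjusted p of 0.05, and squares lay below the median probe set in both groups. The periportal list reaches 2.62 at G6pc, and the pericentral list reaches 0.72 at Cyp1a2, with Glul at 0.00.

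Of 18 measured regulators known to act on urea cycle genes, 6 rose, 2 fell and 10 did not pass (median 0.06). Hnf4a, the nuclear receptor at the centre of hepatocyte identity, rose by 0.45 ± 0.055. Cebpa and Cebpb, basic leucine zipper factors that bind the Cps1 and Arg1 regulatory regions, stood at 0.44 ± 0.071 and -0.43 ± 0.076. Klf15, a factor induced by glucocorticoid and linked to nitrogen disposal in mice, rose by 0.83 ± 0.081 and Tcf7l2, a Wnt effector, by 0.52 ± 0.063. Foxa1, a pioneer factor, fell by 0.70 ± 0.079. Nr3c1, the glucocorticoid receptor, stood at 0.08 and Ctnnb1, which encodes beta-catenin, at -0.09, neither past the threshold.

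Across the 8 arrays, the 5 genes whose signal followed Cps1 most closely among 12398 compared were G6pc, Tmem45a, Pcca, Dbt and Rbl2, with Pearson r from 0.998 to 0.999. Among the enzymes r with Cps1 was 0.985 for Otc, 0.974 for Glud1, 0.966 for Arg1, 0.901 for Asl, 0.583 for Nags and -0.049 for Glul. These values share the same arrays and mostly restate the gap between genotypes.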

How the data were processed

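Per the labels' protocols, total RNA of 8 cultures was treated with DNase, biotin-labelled and hybridised to Affymetrix arrays. The deposited values are log2 signals, 1 per probe set and array. The log2 scale was read from the values themselves (0.44 to 13.55), and background correction, normalization and summarisation were not given in the sources used here. No background measure was used, and 4 arrays per group limit the precision.

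Of 41345 probe sets, 23521 had 1 gene symbol in the platform annotation, 1814 several and 16010 none listed. Each of 22180 genes was represented by its probe set with the highest mean over the 8 arrays. Genotypes were compared with limma 3.58.1 under R 4.3.3 in a design with genotype alone, two-sided, with Benjamini-Hochberg adjustment. The fit was tested on simulated data. The design text speaks of separate cultures, so p-values measure the spread between these cultures, which may be technical. Chromosomes came from GRCm38.p6. Of 187 listed symbols 173 were measured.

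The members and lists were chosen with earlier results of these data known. Lists are described by counts and medians and were not tested as lists. Genes named were Vwa8, the members, Arg2, Cad, Slc25a15, Slc25a13, Oat, Sirt5, Hnf4a, Cebpa and Alb whatever their values, up to 4 genes per list with the smallest adjusted p, genes passing against their list's majority, and the 5 most like Cps1. Car5a, also in that rule, was not analysed here, and 1 item is not reported here. Other names were chosen after their values were seen.

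Alternatives were quantile normalization, a block for replicate number, array weights, median centring, a variance trend on intensity with robust estimation, averaging a gene's probe sets, omission of the dimmest 25% or 50%, subtraction of the median change of the 30 nearest bright genes on each side, and omission of each array. Same-numbered arrays of the 2 genotypes deviated from their group means with correlations from -0.04 to 0.13, and differently numbered ones from -0.16 to 0.11. These values show no clear pairing of the cultures by number and cannot exclude it. Plots used matplotlib 3.10.9 (Python 3.11.15).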

Additional observations from a re-analysis of the deposited data

Results flagged for a closer look

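In 128 groups of 4 arrays examined, 5 held 1 array far from the other 3, where chance alone marks about 1 group in 20. Replicate 3 was the low one for Nags in both genotypes, at 4.161 in wild-type, where the others lay between 4.40 and 4.42, and at 4.312 in knockout, where they lay between 4.55 and 4.58. Without wild-type replicate 3 the change of Nags was 0.09, and without knockout replicate 3 it was 0.22, neither past the threshold. Knockout replicate 3 was also high for Psat1 (10.35) and low for Cyp1a2 (5.126, the others between 5.44 and 5.48). Knockout replicate 1 was high for Prodh2, at 9.326 against 9.17 to 9.18 (others).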

How the results depend on the processing

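Each of the 5 enzymes that rose passed in all 17 alternatives, with changes from 1.65 to 1.97 for Cps1, 1.18 to 1.32 for Otc, 1.01 to 1.34 for Arg1, 0.27 to 0.44 for Asl and 0.23 to 0.38 for Glud1. Nags passed in none. The log2 fold change of Ass1 passed with the replicate block (0.34, adjusted p = 0.0436 in limma) and without knockout replicate 3, ran from 0.24 to 0.43 over the single omissions, and had too little signal to be tested without the dimmest 50% of probe sets. The log2 fold change of Glul turned sign without passing, at -0.038 with quantile normalization and -0.044 with neighbour subtraction, and ran from -0.026 to 0.024 over the single omissions. Arg2 likewise ran from -0.16 to 0.25 over them. Neighbour subtraction moved the median of the mitochondrial steps to 0.83. Under the replicate block the within-array shifts kept their sizes (Cps1 minus Glul 1.93, Arg1 minus Arg2 1.09, Cps1 minus Cad 2.36), but the paired exact permutation test cannot go below 0.125. Over single omissions Arg1 minus Arg2 ran from 0.88 to 1.27. The block called 3717 genes in place of 4626, and over all alternatives the count ran from 3717 to 5573. Changed genes of the glutamine-using list numbered 8 in place of 5 with an intensity trend and also 8 without the dimmest 50%. Bile duct markers numbered 4 in place of 2 with the trend, and endothelial markers 1 in place of 0 with neighbour subtraction. Over single omissions stellate markers ran from 0 to 1 (1 without wild-type replicate 3) and macrophage markers from 1 to 2 (2 without wild-type replicate 2). Aldh4a1, Aldh1a1, Ftcd, Aqp9 and Ampd3 lost their calls under the replicate block. The causes of these changes were not tested. Dim signals limit what can be said of Nags, Ass1 and Arg2.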
